A study of Brassica napus with 6 samples.

Results

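miR168 and miR162 are the plant miRNAs that act on the small RNA machinery itself. In Arabidopsis, where both loops were worked out, DICER-LIKE 1 (DCL1) cuts miRNA precursors and ARGONAUTE 1 (AGO1) carries most finished miRNAs to their target transcripts. miR168 guides AGO1 to cut AGO1's own mRNA, and miR162 guides the cutting of DCL1 mRNA, so each miRNA acts back on the enzyme it depends on. Members were taken by family number, as every known miRNA of the miR168 or miR162 family in the small RNA count tables and every degradome record under a name of either family, whatever its species prefix. The count tables held 2 such miRNAs among 401, bna-miR168a and bna-miR162b, out of 74 known and 327 predicted miRNAs. The degradome tables held 6 such records of 554 in rod-like plants and 4 of 535 in normal plants.

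Rod-like and normal Brassica napus (oilseed rape) plants grew in one field, and shoot apices were taken at early bolting, 3 months of age. No genotype, allele or treatment is given for either form, and the labels do not describe the rod-like form further. Each RNA sample pooled 6 plants. There were 2 small RNA files per plant type (RNA of 18 to 30 nt) and 1 degradome library per plant type. A degradome library records the 5′ ends of cut transcripts, and the authors' target caller assigned some of these to miRNAs. Each record is therefore a call, and cutting guided by the miRNA was not tested. The labels do not say whether the degradome and small RNA libraries share plant pools, but the rod-like degradome library is numbered 3 and the rod-like small RNA files 1 and 2. The tissue label could not be checked against marker genes, because the tables hold miRNAs and cleavage records and no mRNA levels. Listed counts summed to 712169 and 713637 in the rod-like files and 625795 and 629101 in the normal files, sums over listed miRNAs that are not the sequencing depth.

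The mature sequences are shown because the records tie each family to its cleavage sites through them, and both come from the degradome records, written 5′ to 3′ with T for U and with the seed (bases 2 to 8) in capitals.
bra-miR168c-5p: tCGCTTGGtgcaggtcgggac
bra-miR162-3p: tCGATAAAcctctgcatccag
The names carry the prefix bra, for Brassica rapa, a parent species of oilseed rape, while the counted miRNAs carry bna. These names and those of the count tables were therefore not joined, and no sequence is given for bna-miR168a or bna-miR162b. Both sequences were 21 nt long and began with T, and the seeds differed. Of the 39 named miRNAs in the degradome files, 21 had both features (53.8%). No other name in these files shared either seed.

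The sites are shown because each family listed a single site sequence, given here as the transcript strand, 5′ to 3′, with capitals at bases that are not in a Watson-Crick pair with the miRNA.
bra-miR168c-5p site: TtcccgaGctgcaTcaagcTa
bra-miR162-3p site: ctggatgcagaggtAttatcga
The miR168 site was the same in 4 transcripts. Counted from the 5′ end of the miRNA, positions 2, 14 and 21 were unpaired and position 8 formed a G:U wobble. In the miR162 site, the same in 2 transcripts, every miRNA base was paired, and the transcript had 1 extra base opposite the gap between positions 7 and 8. Bases 10 and 11, between which AGO1 usually cuts, were paired in all of these records, but they were paired in 100% of the records in either library.

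Within a plant type the 2 small RNA files agreed within counting noise, for all miRNAs together and for both members. Over miRNAs with 10 or more counts in a pair of files, the chi-square statistic was 1.05 per degree of freedom for the rod-like files (p = 0.246) and 0.885 for the normal files (p = 0.952), against 116 to 118 between plant types. By two-sided Fisher's exact tests of each member against all other listed counts, the rod-like files gave p = 0.596 for miR168a and p = 0.902 for miR162b. By the same exact test, the normal files gave p = 0.432 for miR168a and p = 0.317 for miR162b. The files of a plant type were counted as 1 sample, so n = 1 per plant type and the differences below have no check against a spread between plant pools. Intervals are 95% and cover counting error only, and those of shares in single files are exact. Those of ratios between plant types take the mean of the 2 files as the count of 1 file. They are therefore wider than intervals from summed counts would be, and leave out 1 less often. In bulk apices, fewer cells that hold a miRNA and less of it per cell cannot be told apart.

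miR168a, the most abundant miRNA in every file, was lower in rod-like apices. It had 153290 and 153345 counts in the rod-like files, against 190609 and 191209 in the normal files. These were 21.5% of listed counts in each rod-like file (Clopper-Pearson intervals 21.4 to 21.6 in both), against 30.5% (30.3 to 30.6) and 30.4% (30.3 to 30.5) in the normal files. The gap between plant types was far wider than any counting interval. Among the most abundant miRNAs besides it, the share intervals of miR166e, miR166f and miR172e also lay apart between plant types, while those of miR158a overlapped. For comparison, 391 other miRNAs had a mean of at least 10 counts per file in either plant type. Of these, 48 had a counting interval of the ratio of shares above 1 and 45 had one below 1. Levels were scaled with edgeR's TMM factors, which assume that most miRNAs do not change. They are given as reads per 1000000 of the listed total after adjustment by these factors (RPM). The level of miR168a was 220836 RPM in rod-like and 296284 RPM in normal apices. In rod-like apices the level was therefore 1.34-fold lower (interval 1.33 to 1.35).

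miR162b stood far below miR168a in abundance and moved the other way. It had 528 and 534 counts in the rod-like files, against 324 and 300 in the normal files. It ranked 29 among the 74 known miRNAs in both rod-like files and 28 in both normal files. Its share of listed counts was 0.0741% (0.0680 to 0.0807) and 0.0748% (0.0686 to 0.0814) in the rod-like files, against 0.0518% (0.0463 to 0.0577) and 0.0477% (0.0424 to 0.0534) in the normal files. The intervals of the rod-like files lay above those of the normal files. Of the 391 miRNAs other than miR168a with a mean of at least 10 counts, 48 had an interval of the ratio of shares above 1, miR162b included. Its TMM-scaled level was 765 RPM in rod-like and 484 RPM in normal apices, a ratio of 1.58 (1.37 to 1.82).

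**Figure D1:**
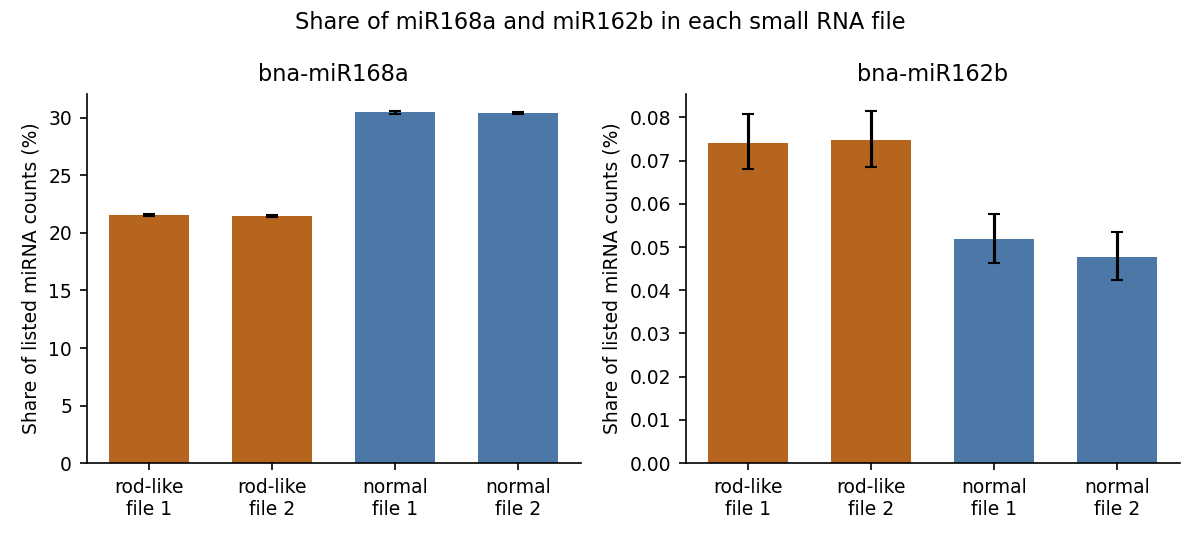
Share of listed miRNA counts (%, vertical axis, on a different scale in each panel) taken by bna-miR168a and bna-miR162b in each rod-like and normal small RNA file. Bars are single files and error bars are 95% Clopper-Pearson intervals. The rod-like files lie below the normal files for miR168a and above them for miR162b.

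The balance between the members can be read without any scaling, since both were counted in the same files. There were 290 and 287 miR168a reads per miR162b read in the rod-like files, against 588 and 637 in the normal files. The ratio was thus lower in both rod-like files. From mean counts it was 289 in rod-like and 612 in normal apices, and the rod-like ratio was 0.472 of the normal one (0.409 to 0.544). This difference has the precision of miR162b, whose mean counts were 531 in rod-like and 312 in normal apices.

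Both members were set against all miRNAs with a mean of at least 10 counts per file in either plant type, 392 in all and 65 of them known. A rod-like to normal ratio of at least 1.5 was found for 15.8% of the 392 and 38.5% of the 65 known miRNAs, miR162b included. A ratio this far in the other direction was found for 7.14% and 6.15%, and miR168a, 1.34-fold lower, was not among them. The interval of miR162b spans 1.5, and its ratio was 1.498 (1.30 to 1.73), just under the limit, when scaled by the total listed count.

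The order of the ratios does not change with the scaling of the libraries. Of the 392 miRNAs, 49 had a lower ratio than miR168a and 342 a higher one. Among the 65 known miRNAs, 6 lay below miR168a and 58 above it. For miR162b, 340 of 392 lay below and 51 above, but among known miRNAs 42 lay below and 22 above. The log2 ratio of miR162b was 0.66, against a median of 0.42 over the 65 known miRNAs and 0.00 over all 392.

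**Figure D2:**
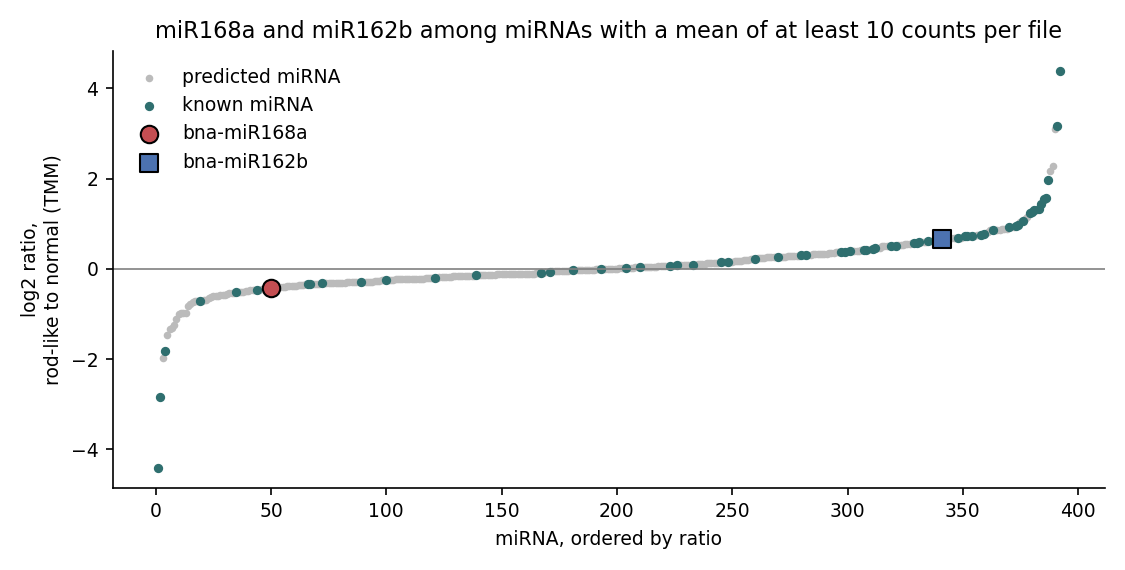
log2 ratio of rod-like to normal apices (TMM scaling, vertical axis) for 392 miRNAs in order of ratio (horizontal axis), with known and predicted miRNAs as separate points and both members marked. bna-miR168a stands at -0.42 with 49 miRNAs below it, and bna-miR162b at 0.66 with 51 above it.

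If the 4 files are instead taken as separate samples, which measures only the spread between files, edgeR's quasi-likelihood test with Benjamini-Hochberg adjustment called both members. Whether both files of a type were made from 1 library is not known, and if they were, these p-values reflect counting error alone. The adjusted p from edgeR was 8.1e-48 for miR168a, lower in the rod-like files, and 2.0e-14 for miR162b, higher in them. That of miR168a depended strongly on the settings of the edgeR fit: the adjusted p was 0.0057 with no filter on low counts, 0.0039 with counts summed by family, and 0.042 with a block of crossed replicate numbers. The test called 65 of 391 miRNAs as higher (16.6%) and 45 as lower (11.5%). Without normal replicate 1 the test called 71 in place of 110, with the single normal file left assumed to vary like the rod-like files. With scaling by the total listed count the split was 55 higher and 58 lower, and with miR168a left out of that total it was 40 higher and 104 lower.

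Of the other miRNAs that bear on this machinery, taken as miR403 (which acts on AGO2 or AGO3), miR390 (TAS3), miR173 (TAS1 and TAS2) and miR828 (TAS4), only miR390 had a row in the count tables used here. miR390a-c, which is bound by AGO7 and triggers secondary siRNAs from TAS3 transcripts, had 7066 and 7067 counts in the rod-like files, against 7570 and 7543 in the normal files. Its TMM-scaled ratio was 0.868 (0.840 to 0.897). With the same scaling, 47 of the 64 known miRNAs other than miR168a had a ratio above 1 and 17 a ratio below 1. Relative to miR390a-c in the same files, miR168a was 0.859 (0.831 to 0.888) of its normal level and miR162b was 1.82 (1.57 to 2.11) times its normal level.

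The known miRNAs nearest to each member in log2 ratio were picked from 45 with a mean of at least 100 counts, and with 1 sample per plant type this likeness rests on a single ratio. Nearest to miR168a at -0.42 were miR169ab at -0.34, miR6029 at -0.34 and miR169n at -0.32. All 3 lay nearer to 0 than miR168a, and the interval of miR169ab, with 133 and 130 counts in rod-like and 151 and 158 in normal files, included 1. Nearest to miR162b at 0.66 were miR156bcg at 0.66, miR156i at 0.68 and miR172e at 0.61.

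miR168a made up most of the share that was lower in rod-like apices. Its mean share of listed counts was 21.5% in rod-like and 30.4% in normal apices, lower by 8.92 percentage points. This was 72.7% of the points summed over all miRNAs whose share was lower in rod-like apices. The next was miR166e, which acts on HD-ZIP III transcription factors, with 19.6% in rod-like and 20.8% in normal apices. On the other side, the predicted novel_mir_1 took 7.35% in rod-like and 1.61% in normal apices, higher by 5.74 points. miR172e, which acts on AP2-type factors, was higher by 2.01 points. All miRNAs other than miR168a and novel_mir_1 together took 71.1% of listed counts in rod-like and 68.0% in normal apices.

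**Figure D3:**
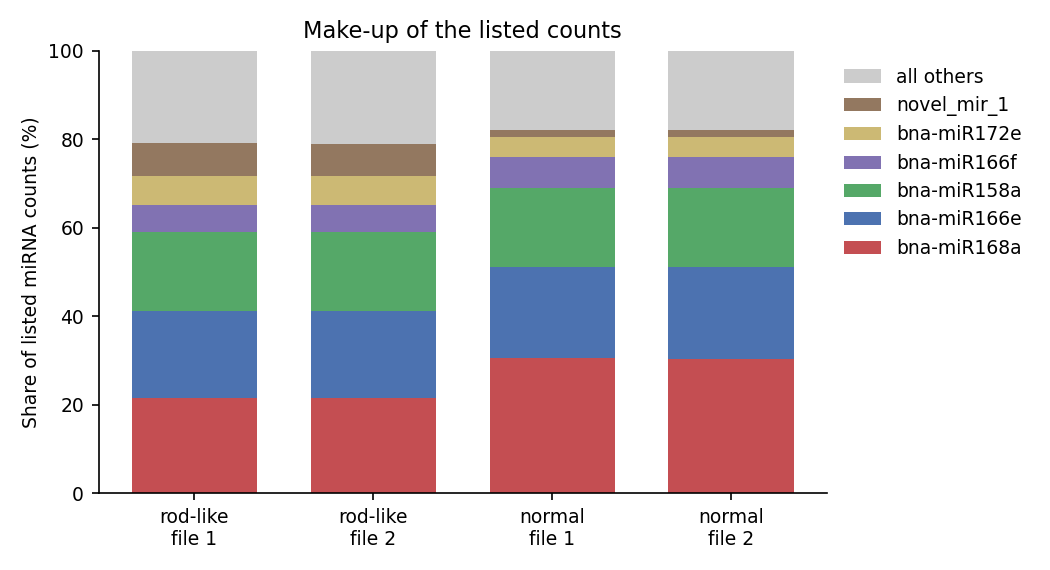
Listed counts of each small RNA file divided among the 5 most abundant miRNAs, novel_mir_1 and all others (stacked shares in %, vertical axis; rod-like files at the left). The miR168a segment at the base is smaller in the rod-like files and the novel_mir_1 segment larger.

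Against each of the other 4 of the 5 most abundant miRNAs in the same files, again with no scaling, miR168a was lower. There were 1.10 miR168a reads per miR166e read in rod-like and 1.46 in normal apices. Per read of miR158a, a Brassicaceae miRNA, there were 1.20 in rod-like and 1.70 in normal apices. Per miR166f read there were 3.5 in rod-like and 4.41 in normal apices. Among these 4 the largest gap was to miR172e, with 3.29 miR168a reads in rod-like and 6.74 in normal apices per miR172e read. For these 4 the rod-like ratio was between 0.489 (0.481 to 0.497), for miR172e, and 0.794 (0.782 to 0.806), for miR166f, of the normal one. The gap to novel_mir_1 was wider, with 2.93 miR168a reads per novel_mir_1 read in rod-like and 18.9 in normal apices, or 0.155 (0.151 to 0.158) of the normal ratio.

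Because a single miRNA held this much of the sum, its share entered the scaling of every other miRNA. Scaling by the total listed count divides the rod-like counts by a sum 1.14 times that of the normal files. Without miR168a the remaining counts were 559586 in rod-like and 436539 in normal apices per file, a factor of 1.28. Leaving miR168a out of the total therefore multiplied the rod-like to normal ratio of each other miRNA by 0.886, a shift of -0.17 on the log2 scale. Leaving out novel_mir_1 as well reduced the shift to -0.07, since the shares of these miRNAs moved in opposite directions.

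The shift of -0.17 moved 40 of 391 miRNAs other than miR168a from a ratio above 1 to one below 1. With the total listed count, 48 of them had an interval above 1 and 45 an interval below 1. With miR168a left out of the total, 37 had an interval above 1 and 82 an interval below 1. In all, 11 lost an interval above 1 and 37 gained one below 1, and for 0 did the interval pass from above 1 to below 1. The number with a ratio of at least 1.5 was 31 in place of 51, and the number lower by at least 1.5-fold was 66 in place of 37. With TMM factors these numbers were 62 and 28.

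Of the 64 known miRNAs other than miR168a, 5 changed side. miR158a had a ratio of 1.00 (0.993 to 1.01) with the total listed count and 0.887 (0.880 to 0.894) without miR168a in it. miR156d-f, which acts on SPL factors of phase change, had 1.11 (1.09 to 1.13) and then 0.983 (0.962 to 1.01). miR160e and miR160a-d, which act on auxin response factors, had ratios of 1.05 and then 0.932 and 0.928. miR399c, which acts on the phosphate regulator PHO2, had 1.01 and then 0.897. Of these 5, miR158a alone had an interval below 1 once miR168a was left out. With TMM factors all 5 ratios lay above 1, from 1.06 for miR158a to 1.17 for miR156d-f.

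**Figure D4:**
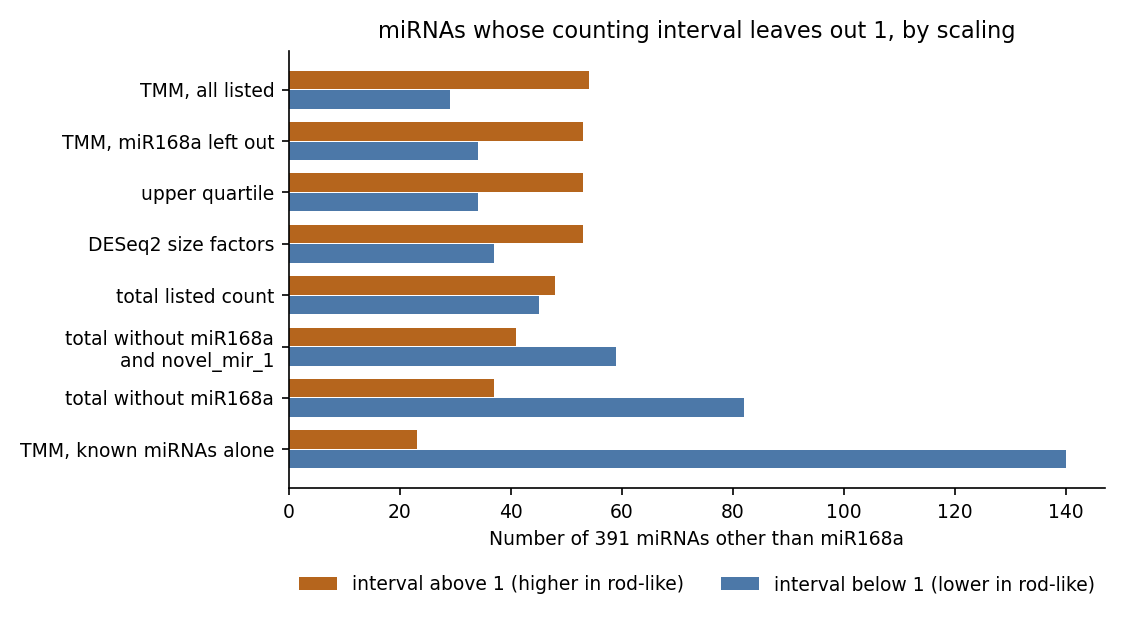
Number of the 391 miRNAs other than miR168a (horizontal axis) whose 95% counting interval of the rod-like to normal ratio lies above 1 or below 1, for each of 8 scalings. The counts above and below 1 are 48 and 45 with the total listed count and 37 and 82 with miR168a left out of it.

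TMM factors, which trim miRNAs with extreme ratios or abundance, were barely moved by miR168a. With miR168a left out of the table, the log2 shift against the total listed count was 0.07, close to the 0.08 with it. The ratio of miR168a was then 0.743 in place of 0.745, and that of miR162b was 1.57 in place of 1.58. TMM factors fitted on known miRNAs alone shifted all ratios by -0.42 against the total listed count. With these, miR168a was lower by a factor of 1.90 (1.89 to 1.91) in rod-like apices. The ratio of miR162b was 1.12 (0.968 to 1.29), and this interval from mean counts includes 1. An interval from summed counts would be narrower and was not computed.

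**Figure D5:**
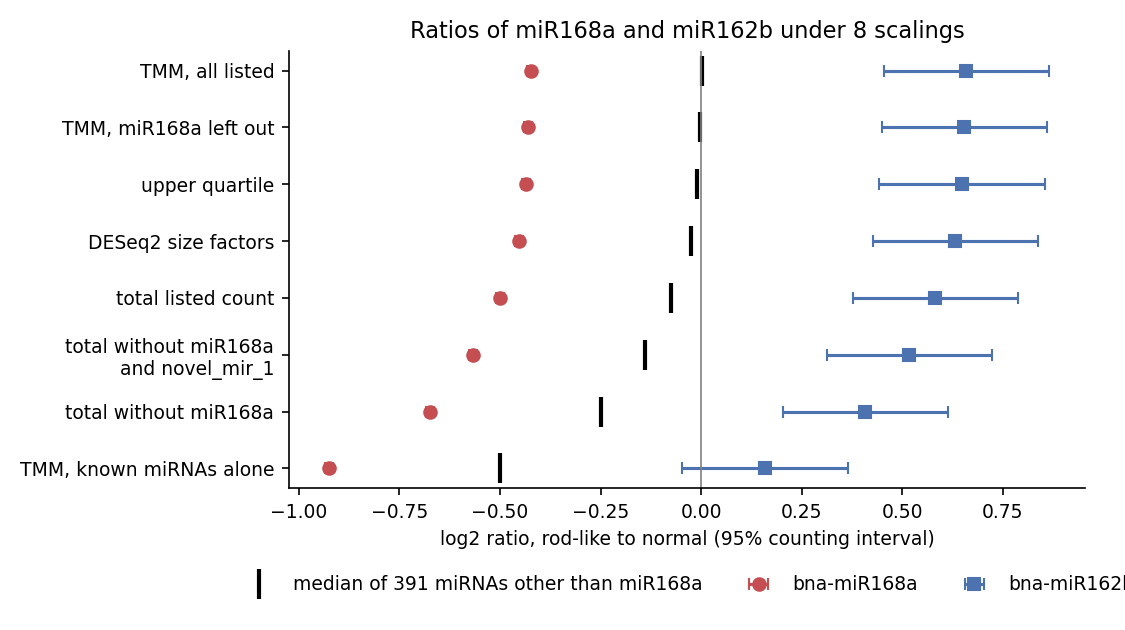
log2 ratio of rod-like to normal apices (horizontal axis) for bna-miR168a and bna-miR162b under each of 8 scalings, with 95% counting intervals, narrower than the symbol for miR168a, and the median of the 391 miRNAs other than miR168a as a black tick. miR168a lies below 0 and miR162b above 0 in each. The interval of miR162b, from mean counts, reaches 0 with TMM factors on known miRNAs alone.

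The degradome listed the same 4 miR168 cleavage sites in both plant types. They were position 585 of BnaA05g17460D, 429 of BnaA08g03260D, 240 of BnaC05g25730D and 417 of BnaC08g46720D, positions being those of the authors' records on their transcripts. By their names, 2 of these transcripts lie on A-subgenome chromosomes (A05 and A08) and 2 on C-subgenome chromosomes (C05 and C08), the genomes that joined in oilseed rape. The files and the gene table used here do not pair these identifiers with gene names. All 4 sites held the sequence printed above, and so the same alignment score of 3.5, where a lower score is a closer match.

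The caller's category, taken here as stronger evidence when lower since the files do not define it, differed between plant types at 1 of the 4 miR168 sites. In the rod-like library all 4 sites were in category 0 with a P-value of 0.002 from the authors' target caller. In the normal library 3 sites were in category 0 with P-values of 0.004. The site in BnaC05g25730D was in category 1 there, with a P-value listed as 0. For comparison, 89.6% of the 307 records of named miRNAs in the rod-like library and 76.4% of the 318 in the normal library were in category 0. In the match to bra-miR168c-5p, the miR168 sites were among the weaker ones. Of named records, 21.2% in the rod-like library and 20.4% in the normal library scored 3.5 or more, and the median score was 2 in both. No score is listed for the counted bna-miR168a.

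miR162 had 2 cleavage records in the rod-like library and 0 in the normal library. They were position 2903 of BnaA10g00800D and position 2894 of BnaC05g00860D, named for chromosomes A10 and C05. Both were in category 0, with a score of 1 and a P-value listed as 0. A score of 1 or less was held by 28.7% of the named records in the rod-like library. With 1 degradome library per plant type and no tag counts in the records, the presence of a site in one library alone was not tested. Of 24 named families in the degradome, 18 had sites in both libraries, 5 in the rod-like library alone and 1 in the normal library alone. miR168 was 1 of 5 families whose listed sites were all shared. No record of any other miRNA name fell on the 6 transcripts listed for miR168 and miR162.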

How the data were processed

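The small RNA values are whole numbers that the authors deposited as counts per miRNA, and nothing in them points to a normalization. How the authors mapped reads, or divided them between near-identical miRNAs, is not given in the sources used here. Each degradome record carries a score, category, position and P-value as the authors deposited them, and their target caller is not given either.

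The members, lists and tests were chosen with earlier results of these data known. Scaling used TMM factors over all 401 miRNAs (edgeR 4.0.16, R 4.3.3), and each ratio of mean counts carries a conditional 95% interval. That interval takes the mean over the files of a plant type as a single count. Since PCR copies of 1 molecule are counted as separate reads, intervals are too narrow for molecules. With the 4 files as separate samples, edgeR's quasi-likelihood test was run with filterByExpr and robust fitting, and DESeq2 1.42.0 as an alternative, with an adjusted p of 0.05 as the limit. Both steps were tested on simulated data. A minimum mean of 10 counts in either plant type applied to counts of miRNAs. Named miRNAs are the members, their pathway families, the 5 most abundant, the 3 nearest in log2 ratio to each member, and known miRNAs that changed side with miR168a left out. novel_mir_1 was added after its values were seen. Tables were made with Python 3.11.15, pandas 2.3.3 and SciPy 1.17.1.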

Additional observations from a re-analysis of the deposited data

How the results depend on the processing

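With 16 alternatives each, miR168a stayed below a ratio of 1 and miR162b above it. The main ratio of miR168a, 0.745, was 0.707 with the total listed count, 0.731 with DESeq2's size factors and with its Wald test, 0.627 with the total without miR168a, 0.675 with novel_mir_1 left out as well, 0.739 with upper-quartile factors, 0.751 in edgeR with counts summed by family, and 0.527 with TMM on known miRNAs alone. For miR162b, at 1.58, the total without miR168a gave 1.33 and TMM on known miRNAs alone 1.12. Leaving out 1 file gave 0.731 to 0.750 for miR168a and 1.49 to 1.65 for miR162b.

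The share of miR168a was 24.9% in rod-like and 33.2% in normal apices among known miRNAs alone, and 23.2% in rod-like and 30.9% in normal apices without novel_mir_1. It was 21.5% in rod-like files and 30.4% to 30.5% in normal files taken singly. Scaled by the total listed count, miRNAs other than miR168a with a ratio of at least 1.5 numbered 51 and those at least 1.5-fold lower 37. These counts were 62 and 28 with TMM over all miRNAs, 31 and 66 with the total without miR168a, 16 and 167 with TMM on known miRNAs alone, and 22 and 3 with a minimum mean of 100 counts. Leaving out 1 file gave 53 to 59 and 31 to 53. With the prefix bna alone the degradome gave 0 records of either family.

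edgeR's quasi-likelihood test called 110 miRNAs on the 4 files and 71 to 87 with 1 file left out, where the lone file of a plant type is assumed to vary like the other type's files. DESeq2 called 57. With a replicate block edgeR called 53, and both members passed, with a ratio of 0.741 for miR168a (adjusted p = 0.0012) and 1.57 for miR162b (adjusted p = 0.012). Deviations of same-numbered files correlated at -0.11 over 98 miRNAs. Since files of a plant type differed by no more than counting noise, this value cannot show whether same-numbered files are paired. A block with crossed numbers, chosen after that value was seen, gave 106, with an adjusted p of 0.042 for miR168a. The adjusted p of miR168a in edgeR was 0.0057 with no filter and 0.0039 by family. With 300 to 534 counts per file, miR162b is known far less precisely than miR168a.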

Other observations

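The listed positions of the cleavage sites differed by multiples of 3 within each family. This held for 6 of 6 pairs among the 4 miR168 transcripts and for the 1 pair of miR162 transcripts. Among pairs of target transcripts listed under the same name in the other named families, it held for 78.3% of 3205 pairs. Pairs that share a transcript are not independent, and no test was made.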
